A study of Pyrus pyrifolia with 6 samples.

Results

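The regions described here are short stretches of pear fruit skin DNA that carried almost no CHH methylation on uncovered fruit, carried more on bagged fruit, and had no other CHH gain close by. They were chosen from the regions that the authors' deposited table lists as differentially methylated. Each lay on a chromosome, was called in CHH context, had a higher mean level in bagged than in unbagged skin, was under 300 bp long with no other CHH gain within 1000 bp, and had an unbagged level under 5%. Both group levels were used to choose them, so the levels and differences below are a description and were not tested. The words gain and start name a difference between bagged and unbagged fruit of the same age, not a change over time. The rule found 5583 regions, 10.3% of the 53954 regions in the table, 13.3% of the 42128 CHH gains on chromosomes and 19.1% of the 29205 isolated short CHH gains.

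Bagged skin came from fruit of Pyrus pyrifolia 'Cuiguan', a cultivar whose skin becomes partly russet, that were covered with a single-layer white bag at 20 days and a double-layer yellow-white bag at 40 days after full bloom (bagged, 3 samples). Unbagged skin came from fruit left uncovered (unbagged, 3 samples). All fruit grew on trees of 7 years in an orchard and all skin was collected at 115 days after full bloom. How many fruits or trees went into a sample is not stated in the labels. Genomic DNA of whole skin was read by bisulfite sequencing, in which an unmethylated cytosine is read as thymine, and the authors gave 1 mean level per group and region. The levels therefore have no spread between replicates, the depth behind them is unknown, and no test across samples could be made. In whole skin, more methylation per cell and more cells of a methylated type cannot be told apart. The conversion rate is not given, so how much of a level of a few percent is unconverted cytosine is unknown. Whether conversion differed between the groups was not tested. Intervals in parentheses after a share are 95% exact binomial intervals by the Clopper-Pearson method. They cover only counting error, because regions are not replicates of the treatment and neighbouring regions are not independent.

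Plants methylate cytosines in 3 contexts, named CG, CHG and CHH, with H standing for any base but G. CG and CHG sites are symmetrical and, as known from Arabidopsis, their methylation is copied after replication by MET1 and CMT3. CHH sites have no methylated partner on the other strand, so their methylation has to be laid down anew, by DRM2 guided by small interfering RNAs or by CMT2 in heterochromatin, and is opposed by demethylases such as ROS1. CHH methylation is usually low and is concentrated at transposable elements and at their edges near genes. Russet skin is a cork layer, rich in suberin, that takes the place of the cuticle.

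The usual near-zero gain was small and left the region weakly methylated in bagged skin too. The authors' mean level had a median of 10.6% in bagged skin (quartiles 8.54 and 13.8, range 2.84 to 57.6), against 3.42% in unbagged skin (quartiles 2.497 and 4.21, lowest 0.390). The difference had a median of 6.92 points (quartiles 5.41 and 10.2), and the ratio of bagged to unbagged level had a median of 3.28 (quartiles 2.62 and 4.55). The level in bagged skin stayed under 10% in 2385 regions (42.7%) and lay from 10 to 20% in 2700 (48.4%). It lay from 20 to 30% in 369 regions and reached 30% or more in 129 (2.31%). A small tail thus reached levels that other isolated gains also had in bagged skin, where the median was 28.2%.

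A gain of at least 20 points was found in 315 near-zero gains (5.64%), beside 9.01% of all CHH gains on chromosomes. A ratio of at least 3 was found in 3316 of them (59.4%), beside 15.2% of all CHH gains on chromosomes. The rule used both levels, so nothing is read from these shares. The ratio was at least 10 in 158 regions. Its highest value, looked up after the values were seen, was 40.0 and belonged to a region of 5 cytosines at chr12:14753744-14753800, at 24.6% in bagged skin and 0.616% in unbagged skin. The lowest unbagged level, 0.390%, was likewise looked up and was that of chr10:6122333-6122491, whose 52 cytosines were at 3.07% in bagged skin.

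**Figure D1:**
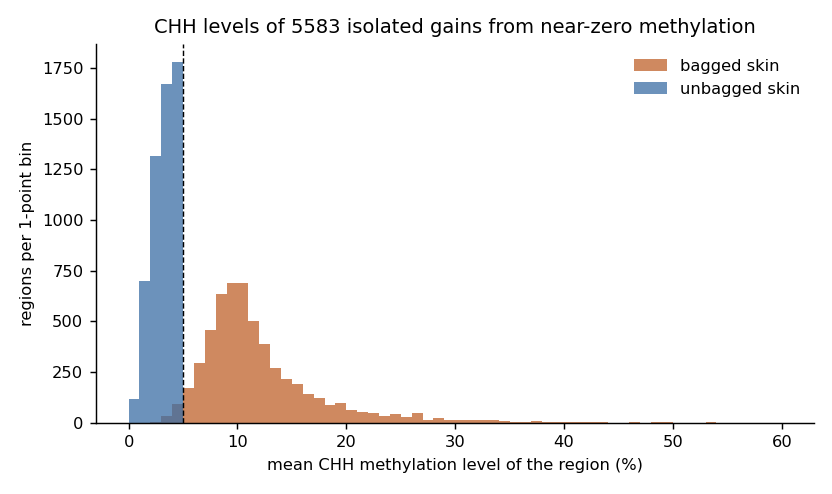
The histogram gives the number of near-zero gains (vertical axis) by the authors' mean CHH level in percent (horizontal axis, 1-point bins) in bagged skin and in unbagged skin. The bagged levels center on a median of 10.6% with a tail to 57.6%, while the unbagged levels end at the 5% limit of the rule, drawn as a dashed line.

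Near-zero gains with a higher starting level also had a higher level in bagged skin. The 116 regions under 1% in unbagged skin had a median of 4.87% in bagged skin, the 1315 regions from 2 to 3% had 9.22%, and the 1780 regions from 4 to 5% had 12.1%. In the same order, the median difference was 4.18, 6.71 and 7.56 points, and the median ratio was 6.52, 3.70 and 2.70. The lowest difference listed was 2.09, 2.38 and 2.61 points, so smaller differences were called where the starting level was lower. No step was seen at the limit: isolated short gains from 5 to 6% in unbagged skin had a median difference of 7.96 points and a ratio of 2.45. The limits of the rule cut through a continuum. The region just inside the level limit, at chr9:17520777-17520828, was at 16.5% in bagged and 4.9991% in unbagged skin, and the one just outside it, at chr10:16950584-16950666, was at 18.3% and 5.0007%. The regions just inside and outside the gap had 1001 and 1000 bases to the next CHH gain, and those inside and outside the length had 299 and 300 bp.

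The regions with the largest gains lay on different chromosomes. Among near-zero gains with at least 10 cytosines, the largest difference was at chr15:26105277-26105374, where 12 cytosines were at 57.6% in bagged skin and at 4.33% in unbagged skin (53.3 points). At chr14:15330737-15330947, 58 cytosines were at 53.8% in bagged and 4.31% in unbagged skin. This region therefore combined a large gain with many cytosines. Differences of 48.7, 48.2 and 46.8 points followed, at chr10:14329526-14329662, chr7:6721547-6721699 and chr5:823614-823720.

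The largest gain of each chromosome, under the same minimum of 10 cytosines, had a difference between 31.3 and 53.3 points (median 42.5). Across these 17 regions, bagged levels ran from 33.4 to 57.6% and unbagged levels from 0.915 to 4.84%, without overlap, which the rule and the choice of the largest differences bring about. The smallest of the 17 differences was that of chr17:11266603-11266776, at 34.1% in bagged skin and 2.72% in unbagged skin. The lowest start among them was at chr11:2543850-2543968, at 33.4% in bagged and 0.915% in unbagged skin. At chr13:11566392-11566621, 75 cytosines, the most of the 17, were at 45.1% in bagged and 4.15% in unbagged skin. Every other leader had a gain of the same order, on whichever chromosome it lay. These were at chr1:6550786-6550969 (38.7 points), chr2:22617549-22617607 (38.4 points) and chr3:7227170-7227223 (36.3 points). They were followed in order of chromosome by those at chr4:14323628-14323756 (45.1 points), at chr6:11499374-11499512 (42.5 points) and at chr8:2888851-2888993 (44.95 points). The last of them were at chr9:22208754-22209036 (45.6 points), at chr12:21674949-21675026 (36.2 points) and at chr16:2546016-2546127 (38.3 points). None of the 17 overlapped a called CG or CHG region, which 1.16% of all near-zero gains did, so nothing is read from this.

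Near-zero gains had a median length of 111 bp and a median of 31 CHH cytosines (range 4 to 118), against 123 bp and 34 cytosines in the 23622 isolated short gains that started at 5% or more. The density was a median of 28.7 cytosines per 100 bp in near-zero gains and 28.3 in the others. The 1806 near-zero gains that had another CHH gain within 1000 bp, left out by the rule, had 110 bp, 31 cytosines and a median difference of 6.90 points, close to the isolated ones. The region with the most cytosines, 118, was at chr9:19108991-19109272, at 13.7% in bagged and 4.94% in unbagged skin. Those that followed, with 117 at chr12:8455286-8455579 and 114 at chr9:7579124-7579415, were at 11.1% and 10.4% in bagged skin, against 4.22% and 2.89% in unbagged skin. The longest regions, 299 bp each at chr13:21792343-21792641 and at chr17:12621631-12621929, were at 10.6% and 10.8% in bagged skin, against 4.03% and 2.94% in unbagged skin. Of the 2 regions of 298 bp, that at chr1:10257940-10258237 had a difference of 7.36 points and that at chr13:25435498-25435795 one of 22.3 points. The many-cytosine regions thus mostly had gains near the median.

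Larger gains were found in regions with fewer listed CHH cytosines per 100 bp. This density is the deposited number of cytosines over the length of the region. Whether it reflects the sequence or the sites that were read was not tested. The median difference was 16.6 points in the 56 near-zero gains with under 10 CHH cytosines per 100 bp, 12.1 points at 15 to 20, 6.80 points at 25 to 30 and 5.63 points in the 1023 regions with 35 or more. Of the regions with under 10 cytosines per 100 bp, 39.3% gained at least 20 points (26.5 to 53.2), and of those with 35 or more, 0.587% did (0.216 to 1.27). Spearman's rho between difference and density was -0.47 across the 5583 regions, and -0.37 across the 23622 isolated gains from 5% or more. Regions of a set share the same libraries, so rho is given as a description. Between difference and length rho was 0.08. By bagged level, regions that reached 30% or more had a median of 17.7 cytosines per 100 bp, against 30.7 in regions that stayed under 10%. The lowest difference listed was 5.11 points in regions with under 10 cytosines per 100 bp and lay between 2.09 and 2.99 points in every denser class. By cytosine number it was 5.01 points below 10 cytosines, 3.33 points from 10 to 19, and between 2.09 and 2.77 points in the classes above. Whether a limit of the calling shaped the trend with density was not tested.

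**Figure D2:**
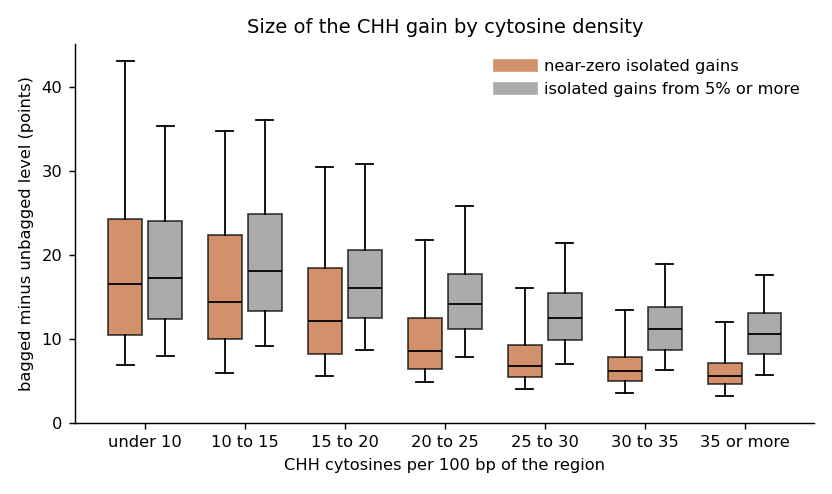
Boxes give the quartiles and median, and whiskers the 5th and 95th percentiles, of the bagged minus unbagged CHH level in points (vertical axis) by CHH cytosines per 100 bp (horizontal axis), for near-zero isolated gains and for isolated gains from 5% or more. The median of the near-zero gains is 16.6 points in the sparsest class and 5.63 points in the densest.

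The area statistic in the authors' deposited table, a score of their region caller, had a median of 154 in near-zero gains and 172 in isolated gains from 5% or more. It followed the number of cytosines (rho 0.96) far more than the difference (rho -0.04) across near-zero gains. The same held across isolated gains from 5% or more (rho 0.97 and 0.08), so this is not particular to near-zero gains. In the authors' deposited table its highest values were 788 at chr13:6267271-6267538, 755 for the chromosome 14 region named above, and 750 for the chromosome 13 region of 75 cytosines. The first of these was at 19.8% in bagged and 3.86% in unbagged skin.

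CG and CHG levels were not used by the rule, and regions called in these contexts give a second readout from the same libraries. Few near-zero gains coincided with one, but where they did, the other context was nearly always higher in bagged skin too. A called CG or CHG region shared at least 1 bp with 65 near-zero gains, 1.16% of them (0.900 to 1.48), beside 0.691% of all CHH gains on chromosomes. Of these, 22 overlapped a CG region alone, 32 a CHG region alone and 11 both. Among isolated gains from 5% or more, 125 overlapped one (0.529%, 0.441 to 0.630), and among clustered near-zero gains 24 did (1.33%, 0.853 to 1.97). These shares were not tested against each other.

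In CG context, 31 of the 33 overlapping regions were higher in bagged skin (93.9%, 79.8 to 99.3), beside 38.4% of all CG regions on chromosomes. In CHG context all 44 overlapping regions were higher (91.96 to 100), beside 50.3% of all CHG regions on chromosomes. The shares over all regions take in every unbagged level and were not matched to the levels of the overlapping regions. The overlapping CG regions had a median level of 43.6% in bagged skin (quartiles 31.3 and 61.7) and 17.7% in unbagged skin (8.33 and 26.7). The overlapping CHG regions had 48.98% in bagged skin (28.6 and 65.3) and 17.1% in unbagged skin (6.02 and 28.3). Where a CG or CHG region was called, its unbagged level was thus more often partial than near zero. Only called regions are listed, so CG and CHG levels at the other near-zero gains are not known. The unbagged level was under 10% in 9 of the 33 CG and 18 of the 44 CHG regions, and under 5% in 3 and 9 of them. At the 65 overlapping near-zero gains themselves the CHH level had a median of 10.3% in bagged and 2.75% in unbagged skin, and at the other 5518 it had 10.6% and 3.43%. The median CHH difference was not larger where another context was called, with 6.80 points at overlapping and 6.92 points at other near-zero gains.

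For isolated gains from 5% or more, 51 of 66 overlapping CG regions (77.3%, 65.3 to 86.7) and 66 of 72 overlapping CHG regions (91.7%, 82.7 to 96.9) were higher in bagged skin. The median unbagged level of these CG regions was 33.9%, against 17.7% at near-zero gains, and that of the CHG regions was 24.6%, against 17.1%. At clustered near-zero gains, 11 of 13 overlapping CG regions and 13 of 14 overlapping CHG regions were higher in bagged skin. At isolated short CHH losses to under 5% in bagged skin, 0 of 18 CG and 0 of 11 CHG regions were. A shared direction is therefore not particular to near-zero gains. Overlap was also set out by cytosine number, since a longer region has more chance to share a base. From 10 to 19 cytosines, 0.575% of near-zero gains (0.211 to 1.25) and 0.370% of gains from 5% or more (0.207 to 0.610) overlapped a CG or CHG region. From 20 to 29 cytosines, 1.06% of near-zero gains (0.597 to 1.75) and 0.329% of gains from 5% or more (0.192 to 0.526) did. From 30 to 39, the share was 1.13% of near-zero gains (0.583 to 1.96) and 0.525% of gains from 5% or more (0.329 to 0.793). From 40 to 59, it was 1.24% of near-zero gains (0.726 to 1.98) and 0.603% of gains from 5% or more (0.427 to 0.826). At 60 or more it was 2.67% of near-zero gains (1.504 to 4.37) and 0.878% of gains from 5% or more (0.593 to 1.25). The intervals of the sets overlapped in all these classes except 20 to 29 and 60 or more. They cover only counting error, and the sets were not tested against each other in any class. Below 10 cytosines 0 of 136 near-zero gains overlapped one, with an exact upper bound of 2.68% (2.21% by the limit of 3 counts of the total), and 3 of 491 gains from 5% or more did. Among near-zero gains the share was 1.72% (0.209 to 6.09) at an unbagged level under 1%, and 2.14% (1.20 to 3.50) from 1 to 2%. It was 1.44% (0.872 to 2.25) from 2 to 3%, 0.838% (0.459 to 1.40) from 3 to 4%, and 0.843% (0.472 to 1.39) from 4 to 5%. The intervals of these classes all overlapped.

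**Figure D3:**
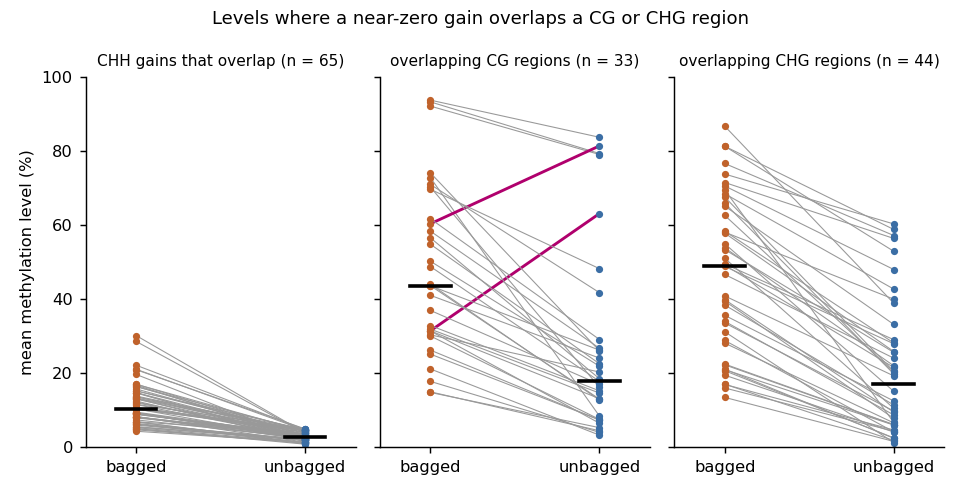
Lines join the authors' mean level in bagged and unbagged skin (vertical axis, percent) for the 65 near-zero CHH gains that overlap a CG or CHG region, the 33 CG regions and the 44 CHG regions, with black bars at the medians. All but the 2 CG regions drawn in a thicker line are lower in unbagged skin, and CG and CHG levels spread far wider than the CHH levels.

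The largest CG and CHG differences at near-zero gains were at a single place on chromosome 11. There the CHH region from 5650210 to 5650468 was at 14.6% in bagged and 1.98% in unbagged skin over 76 cytosines. Within it, 12 cytosines in CG context were at 72.8% in bagged and 8.33% in unbagged skin, and 33 in CHG context at 69.5% and 6.62%. Both symmetrical contexts thus stood much higher in bagged skin than the CHH cytosines between them. The next CG difference was on chromosome 5, where the CHH region from 9607831 to 9607942 was at 14.7% in bagged and 1.38% in unbagged skin and the CG region at 70.2% and 16.1%. At chr16:17634728-17634835, CHH was at 8.03% in bagged and 2.19% in unbagged skin, and a CG region of 39 cytosines at 74.1% and 26.0%.

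The 5 largest CHG differences after that on chromosome 11 stood beside CHH differences from 6.63 to 26.3 points, that is, on both sides of the upper quartile of all near-zero gains, 10.2 points. At chr16:12648903-12648980 the CHG region was at 86.7% in bagged and 38.9% in unbagged skin, with a CHH difference of 6.63 points, and from 2881081 to 2881259 it was at 67.6% and 20.4%, with a CHH difference of 9.39 points. At chr6:14701135-14701386, CHG was at 65.9% in bagged and 19.8% in unbagged skin, and the CHH level was 30.1% in bagged and 3.77% in unbagged skin (26.3 points). It was the only overlapping near-zero gain at 30% or more. At chr17:4442236-4442435 the CHG level was 62.6% in bagged and 20.3% in unbagged skin, with a CHH difference of 12.7 points. At chr15:8112143-8112278 the CHG level was 51.0% in bagged and 10.4% in unbagged skin, with a CHH difference of 14.6 points.

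At the 11 near-zero gains that overlapped both contexts, all 11 CG and all 12 CHG regions were higher in bagged skin. CG levels there ran from 21.1 to 72.8% in bagged and from 3.18 to 48.2% in unbagged skin, and CHG levels from 17.0 to 69.5% and from 1.74 to 29.0%, so the groups' ranges overlapped while every place had the same direction. At chr12:18528887-18529113 all contexts were near zero in unbagged skin: CHH was at 4.96% in bagged and 0.739% in unbagged skin, CG at 21.1% and 3.18%, and 2 CHG regions at 17.0% and 20.6% in bagged, against 1.74% and 2.44% in unbagged skin. This place was picked after its values were seen. The 2 CG regions that went against their CHH gain, also picked for that, were on chromosomes 5 and 11. At the first, the CHH region from 6673785 to 6673927 was at 13.8% in bagged and 4.16% in unbagged skin and the CG region at 31.4% and 63.1%. At the second, from 11167234 to 11167426, CHH was at 8.97% in bagged and 2.79% in unbagged skin and CG at 60.4% and 81.4%.

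Next to a near-zero gain, without a shared base, the directions were mixed. Of the 30 CG regions that lay within 500 bp of a near-zero gain without sharing a base, 14 were higher in bagged skin (46.7%, 28.3 to 65.7). Beyond 500 and up to 2000 bp 27 of 50 were (54.0%, 39.3 to 68.2), and beyond 10000 bp 36.2% of 1577. For CHG regions, 20 of 34 within 500 bp (58.8%, 40.7 to 75.4), 42 of 78 beyond 500 and up to 2000 bp (53.8%, 42.2 to 65.2) and 48.1% of 1364 beyond 10000 bp were higher. Around isolated gains from 5% or more, CG regions within 500 bp were higher in 34 of 152 cases (22.4%, 16.02 to 29.8) and CHG regions in 40 of 136 (29.4%, 21.9 to 37.8). Next to those gains most close CG and CHG regions were thus lower in bagged skin, while next to near-zero gains the 2 directions were about equal in number. The difference between the sets was not tested.

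**Figure D4:**
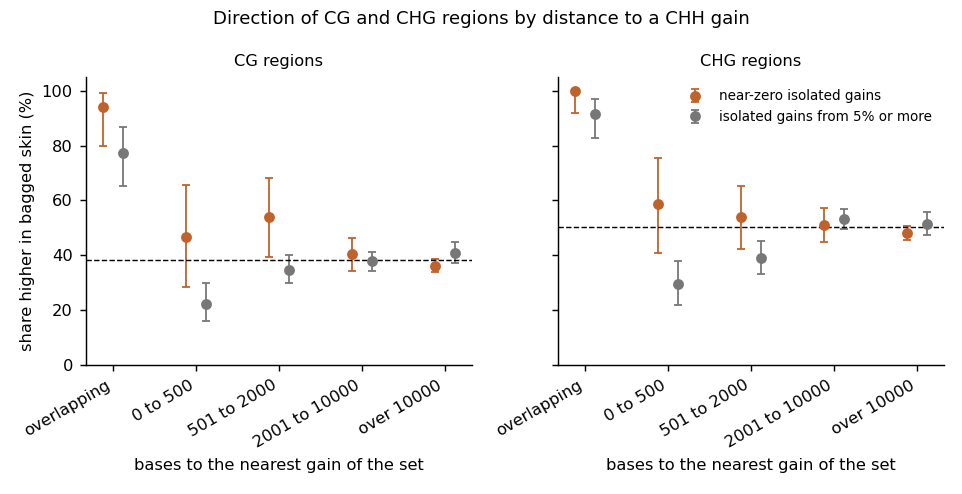
Points give the share of CG regions and of CHG regions higher in bagged skin (vertical axis, percent, with 95% exact binomial intervals) by the number of bases to the nearest near-zero isolated gain or isolated gain from 5% or more (horizontal axis). Dashed lines mark all regions of the context, 38.4% for CG and 50.3% for CHG, and the overlapping regions stand at 93.9% and 100% for near-zero gains.

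CHH losses were about as frequent near these gains as near CHH gains in general. A region with less CHH methylation in bagged skin lay within 2 kb of 248 near-zero gains (4.44%, 3.92 to 5.02), of 1134 isolated gains from 5% or more (4.80%, 4.53 to 5.08) and of 4.61% of all CHH gains on chromosomes. The median distance to the nearest loss was 38118 bases for near-zero gains and 37402 bases for isolated gains from 5% or more. No near-zero gain overlapped a loss, but neither did any CHH gain on chromosomes, so nothing is read from this. Over all CHH gains on chromosomes the shortest distance to a loss was 53 bases. Among near-zero gains the shortest distance was 69 bases, at chr9:24472202-24472296 (8.497 points). It was followed by 98 bases at chr13:14851651-14851766 (6.27 points) and at chr14:22020208-22020305 (27.4 points). The opposite change, an isolated short CHH loss to under 5% in bagged skin, was listed 1055 times among 4533 CHH losses on chromosomes. The 5583 near-zero gains stood among 42128 CHH gains on chromosomes. These losses had a median of 24 cytosines and levels of 3.24% in bagged and 12.4% in unbagged skin.

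Spacing to other CHH gains was close to that of other isolated gains. The nearest one was at a median of 4511 bases (quartiles 2260 and 8914), and 1173 near-zero gains (21.0%) had none within 10000 bases. For isolated gains from 5% or more the median was 4564 bases, and 21.3% had none within 10000 bases, beside 15.3% of all CHH gains on chromosomes. The rule itself removes near neighbours. The nearest gain also started under 5% for 1294 near-zero gains (23.2%, 22.1 to 24.3), against 16.8% of isolated gains from 5% or more (16.3 to 17.3) and 17.4% of all CHH gains on chromosomes. For clustered near-zero gains it was 32.4% (30.2 to 34.6). No test was made between these shares. Between near-zero gains themselves the nearest was at a median of 26655 bases. The most remote regions had no other CHH gain for 103414 bases at chr9:20372-20425, for 76483 bases at chr3:447394-447507 and for 69084 bases at chr15:7650508-7650655. Their differences of 7.19, 6.30 and 4.91 points were near or below the median.

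Near-zero gains were found on all 17 chromosomes, from 224 on chromosome 12 to 484 on chromosome 15. Per Mb up to the last listed region they numbered from 9.09 on chromosome 12 to 13.9 on chromosome 8, against 45.3 to 52.8 for isolated gains from 5% or more. The share of isolated short gains that started near zero was 22.8% on chromosome 13 (20.7 to 24.9), 21.8% on chromosome 16 (19.9 to 23.8) and 21.6% on chromosome 8 (19.7 to 23.6), against 14.7% on chromosome 12 (12.9 to 16.6) and 16.9% on chromosome 4 (14.9 to 19.0). The levels themselves hardly varied between chromosomes, with a median difference from 6.30 points on chromosome 3 to 7.31 points on chromosome 7. Of the 496 bins of 1 Mb, 2 held no near-zero gain, the median bin held 10, and the fullest held 41, between 22 and 23 Mb of chromosome 13, where 90 isolated short gains were listed. The bin before it held 38.

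**Figure D5:**
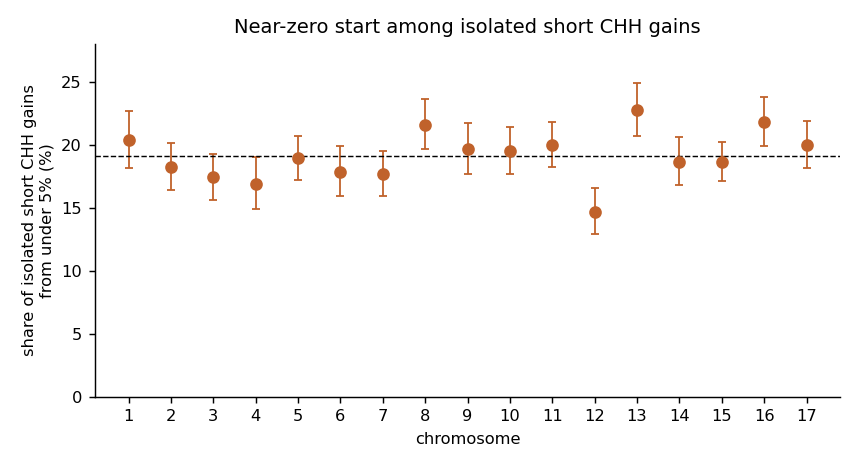
Points give, for each chromosome (horizontal axis), the share in percent of isolated short CHH gains that started under 5% in unbagged skin, with 95% exact binomial intervals, and the dashed line is the share over all chromosomes, 19.1%. Chromosome 12 is lowest at 14.7% and chromosome 13 highest at 22.8%.

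Along the chromosomes, cut into 5 equal parts up to the last listed region, the middle part held 24.5% of the near-zero gains (23.4 to 25.7) and 21.4% of the isolated gains from 5% or more (20.8 to 21.9). The first part held 16.7% and 18.9%, and the last 17.9% and 18.9%. The near-zero share of isolated short gains was higher in the middle part than elsewhere on 12 of the 17 chromosomes, for example 29.5% against 19.5% on chromosome 8. On chromosomes 1, 9, 13, 15 and 16 it was lower, as on chromosome 13 with 19.1% against 23.7%. Where centromeres, genes and transposable elements lie was not analysed here.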

How the data were processed

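Skin DNA went into bisulfite libraries of the Accel-NGS Methyl-Seq type, per the labels' protocols. The submitters' processing notes list FastQC and Bismark 0.16.3, an aligner and methylation caller for bisulfite reads. How regions were called, at which thresholds, with which conversion rate and coverage, and on which genome build they were called, are points that remain not given in the sources used here. The deposited values are mean methylation levels per group as fractions, with replicates pooled by the authors, and are printed as percentages. An area statistic, read as a score of their caller, is also deposited. Every region had been called as different by the authors.

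The regions and lists were chosen with earlier results of these data known. Differences were computed as the bagged minus the unbagged level. The gap is the number of bases between 2 regions, and counting exactly 1000 bases as isolated would give 5584 regions. Positions were read as counted from 1. Near-zero gains were set beside isolated short gains from 5% or more, clustered near-zero gains and isolated losses to under 5%. Overlap meant at least 1 shared bp, and each overlapping pair was counted. The regions named are, among near-zero gains, the largest difference per chromosome and the 5 largest in all (each with at least 10 cytosines), the 3 with most cytosines, longest, highest in area statistic, most remote and nearest to a loss, with ties, the 8 with the largest CG or CHG difference, and those beside each limit. Others are said to be picked after their values were seen. The neighbour search was tested on simulated data. Python 3.11.15, numpy 2.4.6, pandas 2.3.3, scipy 1.17.1 and matplotlib 3.10.9 were used. Sequence and annotation were not used here.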

Additional observations from a re-analysis of the deposited data

How the results depend on the processing

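Of 184 alternative values, 171 stayed within set limits: within 1.5 times for a count, inside the quartiles for a median and inside the binomial interval for a share. All 119 values with a chromosome left out are among them, which these limits make likely, so they are no measure of stability. With an unbagged limit of 2.5%, 1399 regions were left, with a median bagged level of 7.85%, 1.93% overlapping a CG or CHG region, 5.15% within 2 kb of a loss and 3.57% gaining at least 20 points. With a limit of 10% there were 12963 regions, with a median bagged level of 14.6% and 0.841% overlapping. With a difference of at least 10 points there were 1441 regions, with a median bagged level of 17.6%, a median difference of 14.1 points and 21.9% gaining at least 20 points. With at least 20 cytosines, 4.25% gained that much. Limits on a level or on the difference change the number of regions and their levels by construction. The cause of the shifts in the overlap and loss shares, and of that with at least 20 cytosines, was not tested. Other gaps, other length limits and other definitions of overlap moved no value past its limit. No paired analysis was possible because the deposited table holds 1 mean per group and no values per sample. Depth is unknown, so levels of a few percent cannot be given an error.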

Other observations

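On unplaced scaffolds, which the rule left out, 789 CHH gains on 125 scaffolds met its other conditions. They were 39.5% of the 1996 isolated short CHH gains listed there (95% exact binomial interval 37.4 to 41.7), against 19.1% on chromosomes. Their median level was 9.86% in bagged and 3.50% in unbagged skin, with a median difference of 6.14 points and 35 cytosines. A single one overlapped a CG or CHG region (0.127%, 0.00321 to 0.704), against 1.16% of the near-zero gains on chromosomes. The share over all CHH gains on scaffolds and the number of CG and CHG regions there are not given here. Nothing is therefore read from the lower overlap on scaffolds. A scaffold is shorter than a chromosome, so neighbours beyond its ends are not seen.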
